A study of Sus scrofa with 6 samples.

Results

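Expression of 7 genes that mark epithelial cells or the secretions of the oviduct and of glands was followed in 6 RNA sequencing libraries of the reproductive axis of the sow. The genes were OVGP1, KRT8, KRT19, EPCAM, CLDN4, AGR2 and MSMB, each listed once among the 19465 pig genes of the deposited tables. They were picked by name, with values of these same libraries already known, so their differences within a tissue are given as a description, with no test. A count test of state across the tissues, run as an alternative, called 0 genes and is given with the processing alternatives. The animals were primiparous (once-farrowed) landrace x large white sows. One group was anestrous, a state the labels put down to inactive ovaries, and the other was in normal estrus. Hypothalamus, pituitary and ovary were taken as intact organs from 3 sows in each state. Only 1 library represents each tissue and state, and the labels leave unsaid whether it holds 1 sow or a pool, so no value here has a replicate check. Ratios are anestrous over estrous.

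Keratins, EPCAM and claudins belong to the common equipment of simple epithelia, the sheets of polarised cells that line ducts, cover organs and form glands. KRT8 is a type II keratin that pairs with type I keratins such as KRT18 and KRT19 to build intermediate filaments, EPCAM is an adhesion glycoprotein of the epithelial membrane, and CLDN4 is a tight junction protein. AGR2 is a protein disulfide isomerase of the endoplasmic reticulum that is needed for mucin production in the mouse intestine. OVGP1, oviductin, is secreted by non-ciliated cells of the oviduct and attaches to the zona pellucida of the ovulated egg. MSMB is a small cysteine-rich secreted protein best known from human seminal plasma. The anterior pituitary is itself an epithelium, derived from the oral ectoderm, and the ovary is covered by a thin surface epithelium next to the oviduct.

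Libraries held 15314325 to 17384789 reads assigned to genes, recovered as whole numbers from the deposited normalised counts. Levels are given as RPM, reads per 1000000 reads of the library's own total. The tables of the 3 tissues were normalised separately, so levels set across tissues are a description. All intervals cover counting error only, because no tissue and state has a replicate library. No molecular identifiers separate independent molecules from copies, so the intervals may be too narrow even for counting error. The tissue labels held against their markers. The 9 pituitary hormone cell genes found summed to 259628 RPM in the anestrous and 248907 RPM in the estrous pituitary, against 100.5 to 460.4 RPM in the other tissues. The 7 neuron genes found summed to 4695 RPM in the anestrous and 3510 RPM in the estrous hypothalamus, against 4.78 to 557.6 RPM elsewhere. The 10 granulosa cell genes summed to 2415 RPM in the anestrous and 12972 RPM in the estrous ovary, against 44.6 to 148.5 RPM elsewhere.

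**Figure D1:**
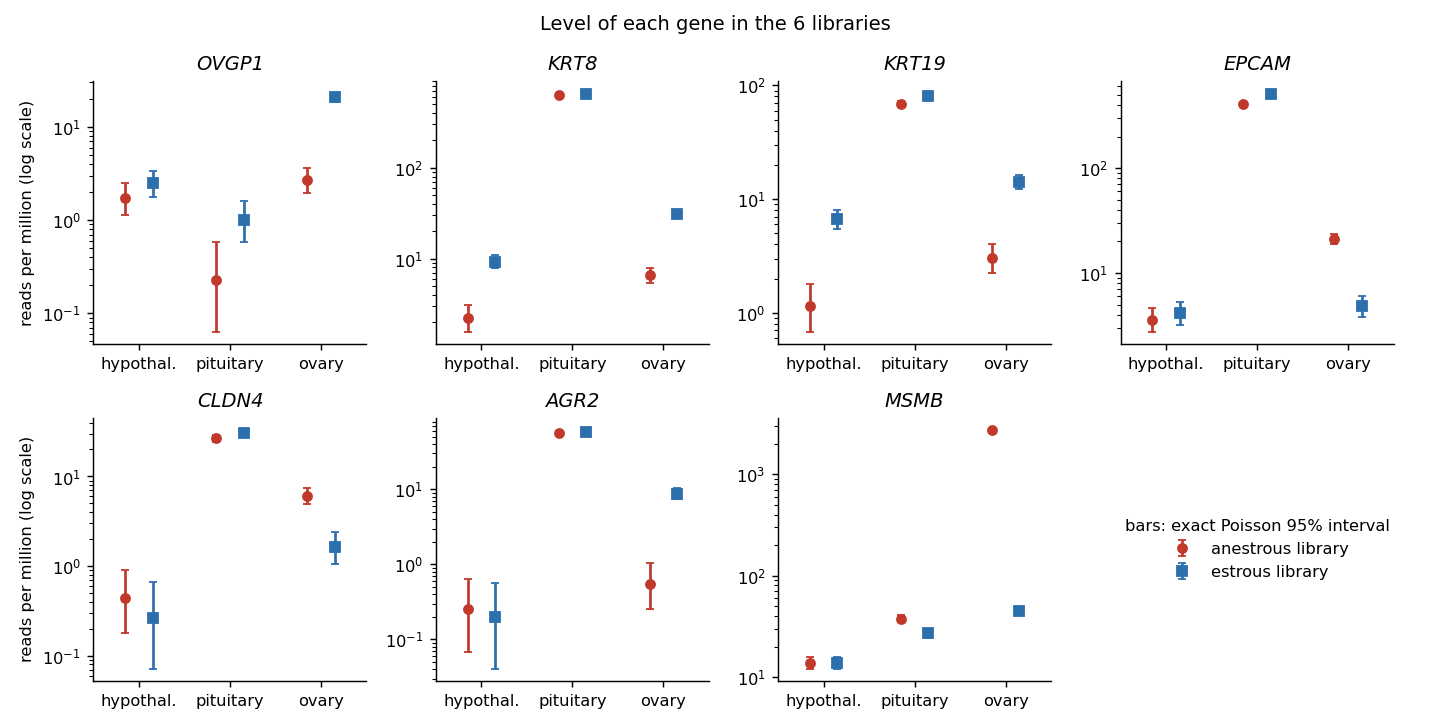
Level of each of the 7 genes in the 6 libraries, in RPM on a log scale, with the anestrous library (circle) left of the estrous library (square) in each tissue and exact Poisson 95% intervals as bars. KRT8, KRT19, EPCAM, CLDN4 and AGR2 were highest in the pituitary, while OVGP1 (20.7 RPM in the estrous ovary) and MSMB (2729 RPM in the anestrous ovary) were highest in the ovary.

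The pituitary held the highest level of 5 of the 7 genes. KRT8 stood at 636 RPM in the anestrous and 654 RPM in the estrous pituitary, and EPCAM at 410 RPM (anestrous) and 509 RPM (estrous). KRT19 stood at 69.0 RPM (anestrous) and 81.4 RPM (estrous), AGR2 at 56.7 RPM (anestrous) and 58.5 RPM (estrous), and CLDN4 at 26.6 RPM (anestrous) and 30.5 RPM (estrous). With both states averaged, the pituitary level was 112-fold the hypothalamic level for KRT8, 118-fold for EPCAM, 81.1-fold for CLDN4, 257-fold for AGR2 and 19.3-fold for KRT19. Set against the ovary, it was 34.2-fold for KRT8, 35.5-fold for EPCAM, 12.3-fold for AGR2, 8.72-fold for KRT19 and 7.42-fold for CLDN4. MSMB and OVGP1 had another order. The averaged ovarian level of MSMB was 42.9-fold its pituitary level, and that of OVGP1 was 19.0-fold.

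Other epithelial genes were often highest in the pituitary too. Of 67 further genes found from 6 epithelial lists (simple keratins, stratified keratins, adhesion and desmosomes, tight junctions, transcription and splicing factors, and apical membrane and trafficking), 53 reached 1 RPM in some library, and 32 of these (60.4%) were highest in the pituitary. Among all 14516 genes that reached this level, 2338 (16.1%) were highest there.

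The 5 genes were not at 0 outside the pituitary, and their levels there were set beside those of pituitary hormone genes. PRL, GH1 and CGA, the genes of prolactin, growth hormone and the glycoprotein hormone alpha subunit, had hypothalamic levels of 0.0597% to 0.101% of the pituitary level in the same state and ovarian levels of 0.0344% to 0.0477% of it. In the hypothalamus, KRT8 stood at 0.348% (anestrous) and 1.42% (estrous) of its pituitary level, KRT19 at 1.65% (anestrous) and 8.19% (estrous), and EPCAM at 0.879% (anestrous) and 0.822% (estrous). CLDN4 stood at 1.67% (anestrous) and 0.856% (estrous), and AGR2 at 0.446% (anestrous) and 0.335% (estrous). In the ovary the same 5 genes stood between 0.952% and 22.9% of their pituitary levels. KRT18, the usual partner of KRT8 and not one of the 7, had 2 reads in the anestrous and 12 in the estrous ovary, or 0.0602% (anestrous) and 0.384% (estrous) of its pituitary level.

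**Figure D2:**
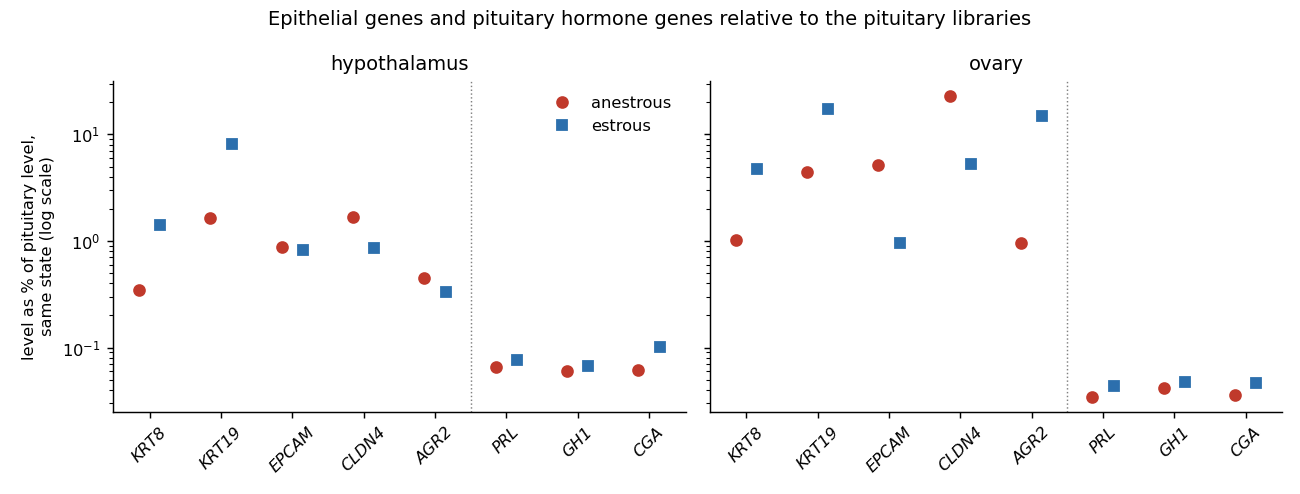
Level of 5 epithelial genes and 3 pituitary hormone genes in the hypothalamus (left panel) and the ovary (right panel) as a percent of the pituitary level in the same state, on a log scale (circle, anestrous; square, estrous). The hormone genes lay between 0.0344% and 0.101%, and each plotted epithelial value lay above them, from 0.335% upward.

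In the ovary, the 7 genes divided by direction. MSMB, EPCAM and CLDN4 were higher in the anestrous library, and AGR2, OVGP1, KRT8 and KRT19 were lower. To be called 2-fold higher or lower, a gene needed a mean normalised count of 50 or more (the floor) and a log2 fold of 1 or more in size, computed with a pseudocount of 1. Of the 7 members, 3 were higher and 4 lower, where over all 10902 ovarian genes above the floor 12.3% were higher and 7.95% lower (1343 and 867 genes), or 20.3% in either direction. Equal library totals shifted ovarian log2 ratios by -0.20, before the pseudocount, and turned the split of all genes to 1033 higher and 1242 lower, with 3 members higher and 4 lower again. With a floor of 200, 2 members were higher and 1 was lower. These libraries are bulk tissue, so fewer cells of a type and less RNA per cell cannot be told apart.

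**Figure D3:**
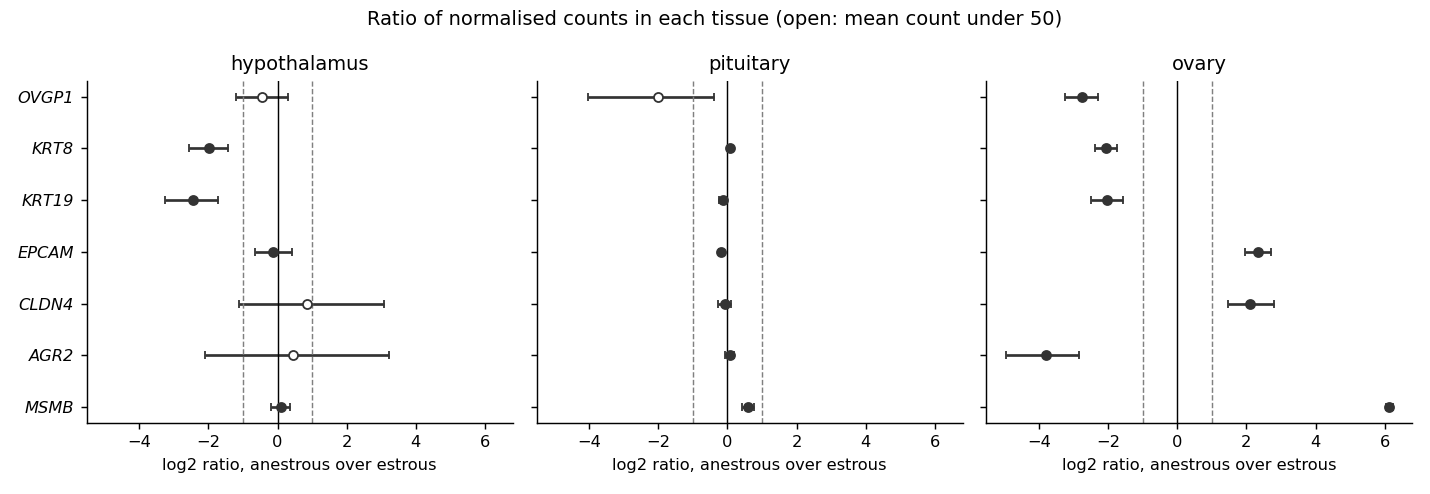
Ratio of normalised counts, anestrous over estrous, on a log2 scale for the 7 genes in each tissue, with exact conditional binomial 95% intervals (open circles, mean count under 50; dashed lines, 2-fold). In the ovary all 7 intervals lie beyond the 2-fold lines, in the hypothalamus those of KRT8 and KRT19 do, and in the pituitary the 6 genes with filled circles lie within 2-fold.

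MSMB (ENSSSCG00000010400) had the greatest ovarian difference of the 7. It had 44848 reads in the anestrous and 692 in the estrous ovary, which is 2729 RPM (anestrous) and 44.7 RPM (estrous). Its normalised count was 70.2-fold higher (95% counting interval 65.2 to 75.8), and its log2 fold of 6.13 ranked 11 from the highest among 10902 genes. In the anestrous ovary it ranked 26 among all genes by reads and took 0.273% of the library, while in the estrous ovary it ranked 4351 and took 0.00447%. Its adjusted p for these libraries was 0.0202 in the authors' deposited table, where 0.676% of ovarian genes were at or below 0.05 and no other member was.

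Both membrane genes were higher in the anestrous ovary. EPCAM (ENSSSCG00000008429) had 346 reads in the anestrous and 75 in the estrous library, a 5.0-fold higher normalised count (3.88 to 6.51). CLDN4 (ENSSSCG00000007718) had 100 reads in the anestrous and 25 in the estrous library and was 4.33-fold higher (2.77 to 7.02). For either gene, the anestrous ovary had the highest level outside the pituitary, and its Poisson interval did not overlap that of the next library. The authors' deposited table gave adjusted p-values of 0.437 for EPCAM and 0.992 for CLDN4.

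The keratin genes were lower in the anestrous ovary. KRT8 (ENSSSCG00000000252) had 107 reads in the anestrous and 483 in the estrous ovary, a 4.17-fold lower normalised count (3.37 to 5.19). KRT19 (ENSSSCG00000017448) had 50 reads in the anestrous and 220 in the estrous ovary, a 4.06-fold lower count (2.97 to 5.64). The intervals of both keratins overlapped.

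The secretory genes OVGP1 and AGR2 were lower as well. OVGP1 (ENSSSCG00000006791) had 44 reads in the anestrous and 321 in the estrous ovary, a 6.73-fold lower count (4.90 to 9.45), at rank 41 from the lowest of the ovarian log2 folds. AGR2 (ENSSSCG00000015363) had 9 reads in the anestrous and 136 in the estrous ovary, a 13.9-fold lower count (7.13 to 31.1), at rank 14 from the lowest. With so few anestrous reads, the size of the AGR2 difference is poorly fixed. For these 4 lower genes the authors' deposited table listed adjusted p-values of 0.213 (AGR2), 0.259 (OVGP1), 0.523 (KRT8) and 0.813 (KRT19).

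**Figure D4:**
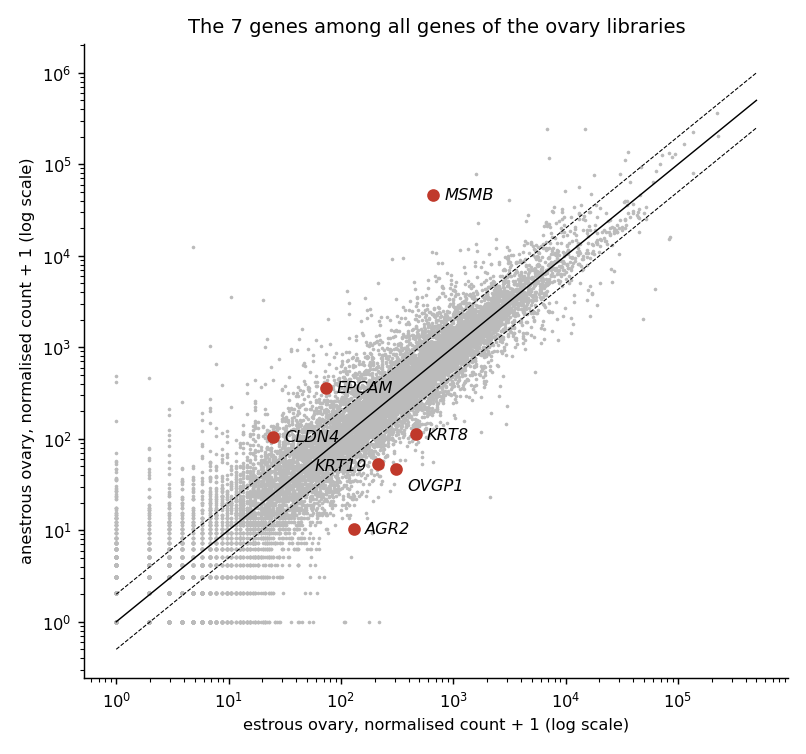
Normalised count plus 1 of every gene in the anestrous ovary (vertical) against the estrous ovary (horizontal), both on log scales, with the 7 genes in red, a solid line at equal counts and dashed lines at 2-fold. MSMB, EPCAM and CLDN4 lie above the upper dashed line, and KRT8, KRT19, OVGP1 and AGR2 lie below the lower one.

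Further epithelial genes of the ovary also differed in both directions. Of the 67 genes of the 6 lists, 27 were above the floor, of which 9 were 2-fold higher, 9 were 2-fold lower and 9 were within 2-fold. That is 33.3% in each direction, beside 12.3% higher and 7.95% lower over all genes. Their median log2 fold was -0.11, against 0.02 over all ovarian genes above the floor. A floor of 200 left 5 higher and 0 lower, so each of the 9 lower genes had a mean count under 200.

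Within the adhesion list, EPCAM included, 4 of 13 genes above the floor were higher and 4 lower. DSG2, a desmosomal cadherin gene, had 1074 reads in the anestrous and 186 in the estrous ovary (6.26-fold higher, 5.35 to 7.35). COL17A1, a hemidesmosome collagen gene, had 143 anestrous and 6 estrous reads (25.8-fold higher, 11.6 to 71.6). PPL, the gene of periplakin, had 19 anestrous and 84 estrous reads (4.08-fold lower, 2.46 to 7.11) and lay just above the floor.

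Among tight junction genes, CLDN4 included, 3 of 6 above the floor were higher and 2 lower. CLDN6 had 235 anestrous and 17 estrous reads (15-fold higher, 9.16 to 26.2). CLDN10 had 17 anestrous and 113 estrous reads (6.13-fold lower, 3.67 to 10.9), and OCLN, the occludin gene, had 45 anestrous and 154 estrous reads (3.16-fold lower, 2.25 to 4.51). Claudin genes therefore differed in opposite directions between the same pair of libraries.

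In the apical membrane list, 4 of 8 genes above the floor were higher and 2 lower. ST14, the gene of the membrane protease matriptase, had 2067 anestrous and 235 estrous reads (9.53-fold higher, 8.32 to 10.96), and SPINT2, which encodes a matriptase inhibitor, had 946 anestrous and 468 estrous reads (2.19-fold higher, 1.96 to 2.45). MYO5B, a myosin of apical recycling, had 69 anestrous and 209 estrous reads (2.80-fold lower, 2.12 to 3.72). ESRP1, an epithelial splicing factor gene, had 24 anestrous and 96 estrous reads (3.69-fold lower, 2.34 to 6.04) and was the only gene of its list above the floor. KRT10 was the only stratified keratin gene above it, with a log2 fold of -0.02.

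Other genes of the oviduct were looked at beside OVGP1. PAX2, a transcription factor gene of the oviduct, had 0 reads in both ovary libraries, and FOXJ1, the master regulator of motile cilia, had 0 anestrous and 8 estrous reads. Of 17 motile cilia genes found, 3 were above the floor, of which CCDC39 was 2-fold lower with 31 anestrous and 101 estrous reads. The cilia genes summed to 73.4 RPM in the anestrous and 94.1 RPM in the estrous ovary, against 231.3 to 325.5 RPM in the other 4 libraries. Of 8 oviduct secretory cell genes found, 5 were above the floor. SOX17 was lower like OVGP1, with a log2 fold of -1.09, but SPP1 (3.72), LTF (3.05) and CD24 (2.90) were higher. The median log2 fold of these 4 genes was 2.98, and none of the 4 is restricted to the oviduct. PAX8 was not found by name. The part of oviduct cells in the OVGP1 reads was not tested.

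**Figure D5:**
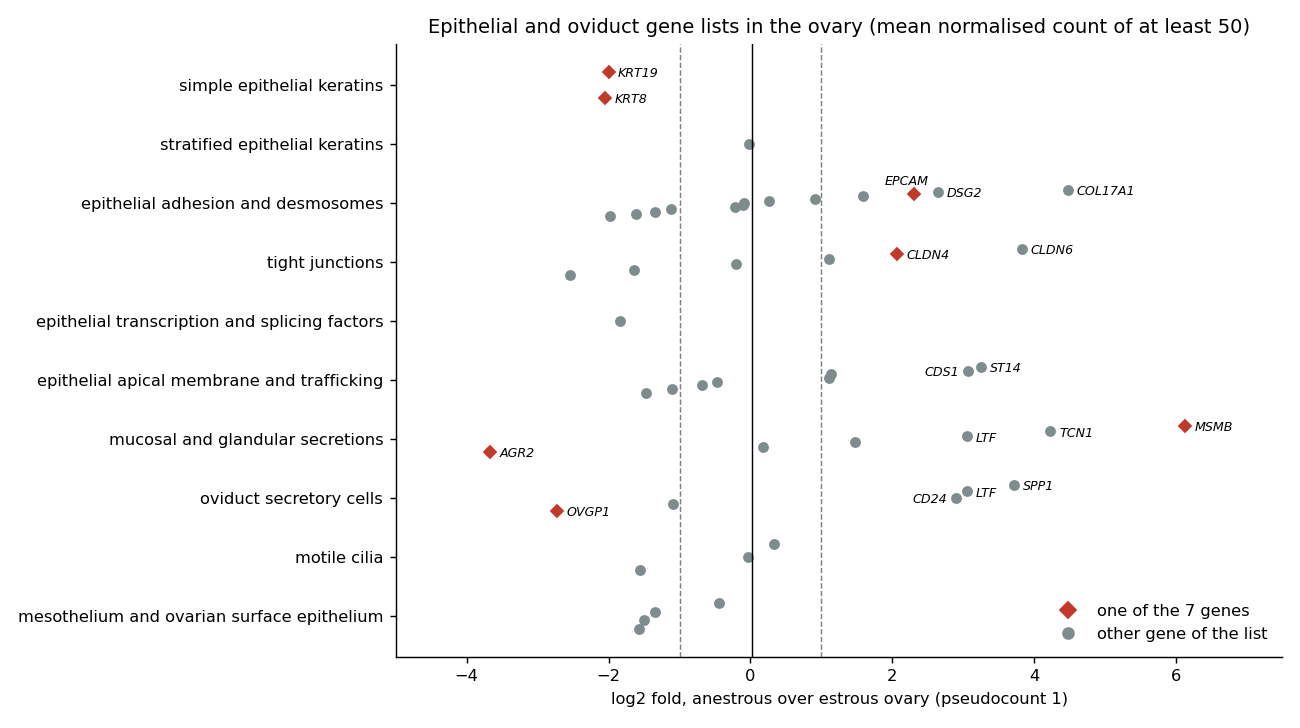
Log2 fold, anestrous over estrous ovary, of every gene with a mean normalised count of at least 50 in 10 gene lists, with the 7 genes as red diamonds and other genes as grey circles (solid line, median of all genes at 0.02; dashed lines, 2-fold). Genes of the adhesion, tight junction and apical membrane lists lie on both sides, while the 4 genes of the mesothelium list lie at or left of -0.44.

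Markers of other cell types differed between the ovary libraries beside these genes. Of 9 mesothelium and ovarian surface epithelium genes found, 4 were above the floor, of which 3 were lower and 0 higher (median log2 fold -1.42). WT1 had 472 anestrous and 1528 estrous reads, UPK1B had 26 anestrous and 82 estrous reads, and PKHD1L1 had 70 anestrous and 194 estrous reads. That list summed to 46.6 RPM (anestrous) and 140.3 RPM (estrous), with LRRN4 at 0 in both. WT1 made up most of either sum, so the sums mainly follow that gene and not the list as a whole. Of the 10 granulosa cell genes, 8 were lower (median -1.71), and of 6 theca and luteal cell genes, 4 were lower and 2 higher. Of 7 leukocyte genes above the floor, 5 were higher and 0 lower (median 1.47). LYZ, lysozyme, had 75250 anestrous and 1648 estrous reads, and CSF1R, a macrophage receptor gene, had 2439 anestrous and 176 estrous reads. The 9 genes of the list summed to 5504 RPM (anestrous) and 481.2 RPM (estrous), none being at 0 in both. LYZ made up most of the anestrous sum, so the difference between these sums mainly follows that gene. Endothelial genes were within 2-fold in 6 of 7 and stromal genes in 5 of 6. The part of these cell types in the differences of the 7 genes was not tested.

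The list of mucosal and glandular secretions, which holds MSMB and AGR2, had 6 genes above the floor, of which 4 were higher and 1, AGR2, was lower. TCN1, the gene of a vitamin B12 carrier of neutrophil granules and secretions, had 380 anestrous and 21 estrous reads (19.6-fold higher, 12.6 to 32.1). LTF, lactoferrin, had 382 anestrous and 49 estrous reads (8.45-fold higher, 6.26 to 11.6). The trefoil peptide genes TFF2 and TFF3, AGR3 and BPIFB1 had 0 reads in both ovary libraries.

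In the hypothalamus, both keratin genes were lower in the anestrous library, and the counting intervals of the other 5 genes held a ratio of 1. KRT8 had 35 reads in the anestrous and 142 in the estrous hypothalamus, a 3.93-fold lower normalised count (2.70 to 5.87). KRT19 had 18 anestrous and 102 estrous reads, a 5.49-fold lower count (3.31 to 9.63). Of the 4 members above the floor, 2 were lower and 0 higher, where over 11390 genes 1.04% were lower and 1.29% higher, or 2.34% in either direction. From the lowest log2 fold, KRT19 ranked 13 and KRT8 ranked 20. The adjusted p was 0.0278 for KRT19 and 0.0509 for KRT8 in the authors' deposited table, where 0.739% of hypothalamic genes were at or below 0.05. The authors' comparison set 1 library against 1, so it cannot measure the spread between sows. Both keratins had few reads, and with a floor of 200 neither was counted.

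The other members had these hypothalamic reads. EPCAM had 57 anestrous and 64 estrous reads, a ratio of 0.919 (0.632 to 1.33), and MSMB had 218 anestrous and 212 estrous reads, a ratio of 1.06 (0.874 to 1.29). OVGP1 had 27 anestrous and 38 estrous reads, CLDN4 had 7 anestrous and 4 estrous reads, and AGR2 had 4 anestrous and 3 estrous reads, so no difference of theirs was detectable at this depth. KRT18 had 37 anestrous and 30 estrous reads. Of the 67 further epithelial genes, 20 were above the floor, of which 1 was higher, PPL with 180 anestrous and 90 estrous reads, and 1 was lower, the desmoplakin gene DSP with 67 anestrous and 174 estrous reads. With library totals made equal, PPL was within 2-fold, and the split of all genes was 113 higher and 167 lower in place of 147 and 119. With no floor, 5 of the further epithelial genes were 2-fold higher and 9 lower, beside 845 higher and 877 lower over all genes. Among the lower ones, KRT5 had 6 anestrous and 30 estrous reads. ELF5, an epithelial transcription factor gene that was also lower, had 7 anestrous and 38 estrous reads. Both were named after their values were seen.

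Markers of other cells differed beside the hypothalamic keratins. Of 6 choroid plexus and ependyma genes, 2 were lower and 0 higher (median log2 fold -0.99), and 4 were lower with totals made equal. TTR, transthyretin, had 856 anestrous and 2299 estrous reads, and KCNJ13, a potassium channel gene, had 59 anestrous and 133 estrous reads. The list summed to 93.4 RPM in the anestrous and 207.3 RPM in the estrous hypothalamus, with none of its genes at 0 in both. TTR made up most of either sum, so the sums mainly follow that gene. Of 12 motile cilia genes above the floor, 1 was lower and 0 higher (median -0.14). Of 4 pituitary hormone cell genes above the floor, 1 was lower, POMC with 744 anestrous and 4697 estrous reads, a gene that hypothalamic neurons also express. PRL had 1598 anestrous and 1479 estrous reads, and GH1 had 647 anestrous and 656 estrous reads, both within 2-fold. The part of these cells in the keratin differences was not tested.

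In the pituitary, none of the 6 members above the floor reached 2-fold, where over 10720 genes 1.2% were higher and 1.9% lower, or 3.11% in either direction. KRT8 had 11056 reads in the anestrous and 11130 in the estrous pituitary, a ratio of 1.05 (1.03 to 1.08), and AGR2 had 985 anestrous and 995 estrous reads, also 1.05 (0.960 to 1.15). Both log2 folds turned below 0 with totals made equal, to -0.04 for KRT8 and -0.05 for AGR2. EPCAM had 7127 anestrous and 8651 estrous reads, a ratio of 0.873 (0.846 to 0.901). KRT19 had 1200 anestrous and 1384 estrous reads (0.919, 0.850 to 0.993), and CLDN4 had 462 anestrous and 519 estrous reads (0.943, 0.830 to 1.07). MSMB had the highest ratio of the 6, with 656 anestrous and 458 estrous reads (1.52, 1.35 to 1.71). OVGP1 was under the floor with 4 anestrous and 17 estrous reads (4.01-fold lower, 1.31 to 16.4). Adjusted p-values of all 7 were 1 in the pituitary table the authors deposited, where 0.635% of genes were at or below 0.05.

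The further epithelial genes of the pituitary were within 2-fold too. None of the 38 above the floor was called, and their median log2 fold was 0.12. KRT18 had 3516 anestrous and 3433 estrous reads. The 6 folliculostellate and stem cell genes found, which mark non-hormonal epithelial cells of the gland, were all within 2-fold, with a median of -0.01. Of 9 hormone cell genes, 1 was higher and 2 were lower.

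The lists of the oviduct and of secretions held genes that were higher in the anestrous pituitary. Of 3 oviduct secretory cell genes above the floor, 2 were higher and 0 lower (median log2 fold 1.03), and the 8 genes found summed to 333.8 RPM (anestrous) and 169.7 RPM (estrous). SPP1, the gene of osteopontin, had 5094 anestrous and 2162 estrous reads (2.497-fold higher, 2.37 to 2.63), and LTF had 211 anestrous and 109 estrous reads (2.05-fold higher, 1.62 to 2.61). SPP1 made up most of either sum, so the sums mainly follow that gene and not the list as a whole. LTF, which also was the 1 higher gene of 6 in the secretion list, was within 2-fold with totals made equal. Of 10 motile cilia genes above the floor, 2 were higher and 0 lower (median 0.22). DNAI2, a dynein gene, had 93 anestrous and 31 estrous reads, and TEKT1, a tektin gene, had 169 anestrous and 76 estrous reads. In the hypothalamus, 0 of 3 oviduct secretory cell genes and 0 of 3 secretion genes above the floor were called.

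Over the 6 libraries, members differed in profile. Likeness was measured as the root mean square distance between log2 levels (RPM plus 0.5), each profile centred on its own mean. The closest members were KRT8 and AGR2 (0.80), EPCAM and CLDN4 (1.03), KRT19 and AGR2 (1.05) and KRT8 and KRT19 (1.10). The farthest were KRT8 and MSMB (4.39). OVGP1 and MSMB were each at least 2.85 from every other member. Levels of OVGP1 stood at 20.7 RPM in the estrous ovary and overlapped between neighbours in the order of all the other libraries, from 2.68 RPM in the anestrous ovary downward.

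Among 12375 named genes that reached 1 RPM in a library, the nearest to each member were found by this distance over the 6 libraries. They included AP1M2 (0.58) and MUC16 (0.70) for KRT8, and MUC16 (0.34) and SLC44A4 (0.40) for AGR2. MUC16, a membrane mucin gene, had 14 anestrous and 83 estrous reads in the ovary and 911 anestrous and 890 estrous reads in the pituitary. KRT19 was nearest to PRSS8 (0.58), CD79B (0.60) and MPZL2 (0.63), and EPCAM to TRIM29 (0.59), RAB38 (0.68) and SCNN1A (0.72). CLDN4 was nearest to C11orf52 (0.20), which had 67 anestrous and 27 estrous ovarian reads, then to FAM83F (0.50) and CD79A (0.51). OVGP1 was nearest to CAV1 (0.40), IGLV-7 (0.42) and LVRN (0.43). MSMB was nearest to ZBED2 (0.51), HK3 (0.52) and SMPDL3B (0.62), and HK3, a hexokinase gene, had 9049 anestrous and 368 estrous ovarian reads.

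Genes beside the members on their chromosomes were mostly within 2-fold. In the RefSeq gene order of the Sscrofa11.1 assembly, used for names and order only, 2 named protein-coding genes on each side of each member gave 28 neighbours, of which 23 were found by name. In the ovary, 14 neighbours were above the floor, of which 0 were higher and 1 was lower, TNS2 near KRT8, with 214 anestrous and 536 estrous reads. NCOA4, next to MSMB, had 5200 anestrous and 8843 estrous reads. CALM2, beside EPCAM, had 8134 anestrous and 8633 estrous reads. In the hypothalamus and pituitary no neighbour above the floor reached 2-fold.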

How the data were processed

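RNA was harvested with Trizol and made into TruSeq libraries, per the labels' protocols. Per the submitters' processing notes, TopHat2 2.1.0 was used. The counter, genome build and strand setting are not given in the sources used here. Overlapping genes and close copies may therefore share counts. Per the file headers, each tissue's table holds the authors' DESeq values: a normalised signal (counts over a size factor), the fold (ratio) of the libraries, a p-value and an adjusted p-value. Whole reads were recovered from 100% of values above 0, to within 0.01 read.

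Symbols came from the tables (12765 of 19465 genes) and then Ensembl names (14422 in all). Of symbols with several rows, the row with most reads was used. Ratio intervals are exact conditional binomial (Clopper-Pearson, 95%), and those of levels are exact Poisson. Named genes were the 7 members, up to 4 per list and tissue with the largest absolute log2 fold, and the 3 nearest profiles of each member. Not every nearest profile is reported here. Others (KRT18, FOXJ1, PAX2, MUC16, hormone genes and neighbours among them) were named after their values were seen. The members and the 20 gene lists were chosen with earlier results of these data known. Alternatives were equal totals, trimmed-mean scaling, a pseudocount of 5, floors of 10, 200 and none, the authors' adjusted p and, chosen after seeing the data, edgeR 4.0.16 on the recovered reads. Code (Python 3.11.15, scipy 1.17.1, R 4.3.3) was tested on simulated data.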

Additional observations from a re-analysis of the deposited data

Results flagged for a closer look

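KRT8 stands out because its ratio lay on opposite sides of 1 in different tissues, with counting intervals that exclude 1. Its log2 fold in the pituitary (0.07) exceeded that in the hypothalamus (-1.95) by 2.02 and that in the ovary (-2.05) by 2.12. The pituitary value turned to -0.04 with library totals made equal. EPCAM stands out likewise, with a log2 fold of 2.31 in the ovary and -0.20 in the pituitary, a difference of 2.502. These differences between tissues were not tested, since each rests on 1 library per tissue and state.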

How the results depend on the processing

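All 21 log2 folds of the members stayed inside their counting intervals with a pseudocount of 5 and with trimmed-mean scaling, and 17 did with equal library totals. Equal totals shifted log2 ratios, before the pseudocount, by -0.0918 in the hypothalamus, -0.115 in the pituitary and -0.202 in the ovary. They moved KRT8 (-0.04), KRT19 (-0.24) and EPCAM (-0.31) in the pituitary and MSMB (5.93) in the ovary. None of these 3 settings changed a count of members.

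With the authors' adjusted p as a further condition, 1 member was lower in the hypothalamus, and in the ovary 1 was higher and 0 were lower. A floor of 200 left 0 members lower in the hypothalamus, and 2 higher and 1 lower in the ovary. A floor of 10 or none gave 1 lower in the pituitary, OVGP1. Further epithelial genes higher in the hypothalamus numbered 0 with equal totals, 0 with a floor of 200 and 5 with none, and those lower 5, 0 and 9 with floors of 10, 200 and none. Their pituitary counts were 1 higher (floor of 10) and 4 higher and 4 lower (no floor). Their ovarian counts were 5 higher and 0 lower (floor of 200) and 15 higher and 19 lower (no floor).

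Over all genes, floors of 10, 200 and none gave 271, 75 and 845 higher and 355, 29 and 877 lower in the hypothalamus, and 299, 48 and 965 higher and 556, 84 and 1139 lower in the pituitary. Ovarian counts were 880 and 2534 higher (floors of 200 and none) and 1418, 501 and 2223 lower (floors of 10, 200 and none). The authors' adjusted p left 67 higher and 31 lower genes in the hypothalamus, 36 higher and 50 lower in the pituitary, and 92 higher and 15 lower in the ovary. In the pituitary, equal totals turned the split to 98 higher and 277 lower in place of 129 and 204. Floors change how many genes are tested by construction.

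The edgeR quasi-likelihood test on recovered reads, with tissue as a block, takes the tissues for replicates, although they are different organs. It called 0 of 13533 genes and 0 of the 7 members, with 484 genes at an unadjusted p under 0.05, where 2614 genes and 7 members were 2-fold different in some tissue. That block pairs libraries by tissue. Within a tissue, no paired analysis was possible because each state has 1 library. Depth limits the members with few reads: in the hypothalamus AGR2, CLDN4 and OVGP1 had 3 to 38 reads per library, and the anestrous library had 18 reads of KRT19 and 35 of KRT8.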
